A study of Mus musculus with 24 samples.

Results

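The genes of the Polycomb repressive complexes were followed through RNA-seq of mouse embryonic stem cells (ESCs) and 2 kinds of expanded potential stem cells (EPSCs), which are cultures made by moving ESCs into other media and are studied for their wider developmental potential. The set held 37 genes, chosen by name: 6 of the PRC2 core (Ezh1, Ezh2, Eed, Suz12, Rbbp4, Rbbp7), 5 accessory genes of PRC2, 2 catalytic genes of PRC1, 10 of canonical PRC1, 12 of variant PRC1, and 1 each of the related complexes Pho-RC (Sfmbt1) and PR-DUB (Asxl1). All 37 were found by symbol in both deposited tables, which listed 23095 genes for the wild-type cells and 25476 genes for the engineered cells, and all 37 passed the filter on low reads. There were 24 libraries, 2 for each of 12 groups. J1, a wild-type mouse ESC line, was grown as ESCs in serum with LIF and the inhibitors known as 2i, as D-EPSCs in a serum-free N2B27-based medium with LIF, CHIR99021, dimethindene maleate and minocycline hydrochloride, and as L-EPSCs in a KSR-based medium with LIF and the inhibitors CHIR99021, PD0325901, A-419259, XAV939, JNK inhibitor VIII and SB203580. Each of 3 tet-off lines lacked the endogenous gene of 1 pluripotency factor and was kept by a transgene that doxycycline (Dox) turns off: ZHBTc4 for Oct4 (Oct4-cKO below), 2TS22C for Sox2 (Sox2-cKO) and NgcKO for Nanog (Nanog-cKO). Each tet-off line was measured as ESCs, as L-EPSCs without Dox and as L-EPSCs with Dox. A factor was represented by 1 line, so line and factor cannot be told apart, and the length of Dox treatment was not given in the labels.

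Polycomb proteins keep developmental genes silent by modifying histones. PRC2 methylates histone H3 through Ezh1 or Ezh2, which work only together with Eed and Suz12, while Rbbp4 and Rbbp7 are histone-binding subunits. Accessory proteins then split PRC2 into the form with a Polycomb-like protein (Mtf2, Phf1 or Phf19), which reads CpG-rich DNA, and the form with Jarid2 and Aebp2. PRC1 ubiquitinates histone H2A through Ring1 or Rnf2, each paired with a Pcgf protein. Canonical PRC1 carries Pcgf2 or Bmi1, a Cbx protein that reads the mark of PRC2, and a Phc protein that lets complexes assemble into larger bodies. Variant PRC1 carries Rybp or Yaf2 in place of Cbx, and its forms are named for their Pcgf subunit: PRC1.1 is brought to CpG islands by Kdm2b, and PRC1.6 holds the sequence-specific factors Mga and E2f6. In mouse ESCs both complexes sit on the promoters of lineage genes, and Cbx7 is the main Cbx protein of the self-renewing state.

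Mga, with its partner Max, binds the E-box CACGTG, and E2f6 binds E2F sites, so promoters of the members themselves were searched for these letters. RefSeq promoter windows on GRCm38.p6, from 250 bases before to 50 bases after the start site, were at hand for 33 of the 37 members, all but Cbx2, Rybp, Yaf2 and Pcgf1. Both strands were searched, and CACGTG reads the same on either strand. The following 30-base stretches are shown because, among the members with an E-box, these 5 had the widest spread over the tet-off groups, with the E-box in capitals. They lie at chr11:119040994-119041023 on the minus strand (Cbx8), chr2:18676791-18676820 on the plus strand (Bmi1), chr4:128654633-128654662 on the plus strand (Phc2), chr11:97699768-97699797 on the minus strand (Pcgf2) and chr15:79834342-79834371 on the minus strand (Cbx6).
Cbx8: cgtcgttagcaaCACGTGgggcgggaggaa
Bmi1: gaatgaggggagCACGTGacccggcggggg
Phc2: ggctggagtgggCACGTGacactctccggt
Pcgf2: aaggaatgaggtCACGTGggtgagtagtgg
Cbx6: ggcccggagcatCACGTGacggcccgcagc
The E-box was in the windows of 9 of the 33 members (27.3%), the other 4 being Phc3, Rbbp4, Sfmbt1 and Bcorl1. It was in 8.09% of all 27025 genes with a window, and in 12.9% of the 7540 genes whose mean was at least 100 normalized counts in both tables.

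The E2F site, searched as TTTCCCGC, TTTCGCGC, TTTGGCGC and TTTGCCGC on both strands, was found in 3 of 33 members (9.09%), namely Phf19, Suz12 and Ezh2. Of the 7540 expressed genes 5.27% held it. Phf19 (chr2:34914166-34914195, minus strand) and Suz12 (chr11:79992876-79992905, plus strand) are shown for their place in PRC2, with the site in capitals.
Phf19: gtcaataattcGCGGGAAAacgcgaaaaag
Suz12: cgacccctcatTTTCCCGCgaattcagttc
The E-box and E2F letters do not overlap each other in these stretches, and a match describes the sequence only.

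Reads per library ranged from 11612919 to 15069899 in the J1 libraries and from 10807631 to 14798984 in the tet-off libraries. Values are normalized counts, reads per gene divided by the size factor of the library, and the 2 tables were scaled separately, so no test was made across them. Labels do not say whether the 2 libraries of a group came from separate cultures, so p-values measure the spread between these libraries, which may be technical. With Dox, the targeted gene fell from 6420.1 and 6316 to 162 and 184 for Pou5f1 (Oct4) in Oct4-cKO, from 4966 and 4701 to 47.0 and 53.1 for Sox2 in Sox2-cKO, and from 9119 and 8847 to 3166 and 3112 for Nanog in Nanog-cKO. In J1, the summed level of 10 fibroblast markers in the ESC libraries was 90908 and 93235, that in D-EPSCs 56915 and 57204 and that in L-EPSCs 18944 and 19531, and none of these markers was at 0. The summed level of 10 macrophage markers was 2838 and 2868, 23988 and 24225 and 17646 and 17774 in the same order. In the tet-off libraries the sums of the 9 fibroblast and 8 macrophage markers listed there were at most 761. Fewer cells of a type and less RNA per cell cannot be told apart in bulk samples. By the paper's methods, J1 ESCs were kept on inactivated mouse fibroblasts as feeder cells or on gelatin. Both EPSCs were kept without feeder cells for several passages before sequencing. Labels do not say whether the J1 ESC libraries came from cultures with feeder cells, and their part in the J1 values was not tested.

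A gene was called when its adjusted p (limma, Benjamini-Hochberg over all genes tested) was below 0.05 and its log2 fold change was beyond 0.6 in size. Errors given with ± on log2 fold changes are standard errors, and those on shares are SD with n = 2. In J1, 7 members were called between D-EPSCs and ESCs (3 higher and 4 lower in D-EPSCs), against 20.7% of all genes (10.8% higher, 9.98% lower). Between L-EPSCs and ESCs 7 were called (3 higher, 4 lower in L-EPSCs), against 20.3% of all genes (8.8% higher, 11.5% lower). Between L-EPSCs and D-EPSCs 3 were called, all with less in L-EPSCs, against 13.4% of all genes (4.8% higher, 8.58% lower). No member passed as more abundant in L-EPSCs in that last comparison in limma, where 14 had an unadjusted p below 0.05, edgeR called 1 (Pcgf5) and DESeq2 called 0. Between L-EPSCs and ESCs of the tet-off lines, the change called conversion here, 13 members were called in Oct4-cKO (6 higher, 7 lower), against 28.4% of all genes (13.0% higher, 15.4% lower). In Sox2-cKO there were 10 (4 higher, 6 lower), against 19.6% (7.99% higher, 11.6% lower), and in Nanog-cKO 18 (10 higher, 8 lower), against 26.9% (12.2% higher, 14.7% lower). Between Dox and no Dox, 17 were called in Oct4-cKO (6 higher, 11 lower), against 27.9% of all genes (13.0% higher, 14.9% lower). Sox2-cKO had 11 (6 higher, 5 lower), against 23.2% (12.2% higher, 11.0% lower), and Nanog-cKO 3 (2 higher, 1 lower), against 9.94% (5.17% higher, 4.77% lower).

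Read against these backgrounds, the members were called in shares of 18.9% in both J1 comparisons with ESCs, near the background of all genes. The share was above the background in Nanog-cKO conversion (48.6%) and with Dox in Oct4-cKO (45.9%), and lay within 10 percentage points of it in the other comparisons. Most members are well expressed, and among genes with a mean of at least 100 the share of members called was 47.2% beside 35.6% of such genes in Nanog-cKO conversion, and 44.4% beside 36.5% with Dox in Oct4-cKO (36 members). With Dox it was 27.8% beside 29.5% in Sox2-cKO and 5.56% beside 12.8% in Nanog-cKO, and on conversion 33.3% beside 37.7% in Oct4-cKO and 25.0% beside 23.2% in Sox2-cKO. In J1, with 35 such members, it was 14.3% beside 22.2% for both EPSCs against ESCs, and 8.57% beside 14.7% between the EPSCs. Median log2 fold changes of the 37 members lay between -0.12 and 0.04 in the 9 comparisons. The set did not move 1 way as a whole in any of them, and the changes described below are those of single subunits. Rbbp4, Rnf2 and Pcgf6 were called in none of the 9 comparisons, and the other 34 were called in at least 1.

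Many members moved by less than the fold threshold. By adjusted p alone, 7 were higher and 15 lower in J1 D-EPSCs (38.0% of all genes), 10 and 13 in J1 L-EPSCs (39.4%), and 13 and 8 in L-EPSCs relative to D-EPSCs (30.4%). On conversion 11 were higher and 15 lower in Oct4-cKO (44.1% of all genes), 7 and 19 in Sox2-cKO (36.5%) and 15 and 12 in Nanog-cKO (42.7%). With Dox 12 were higher and 17 lower in Oct4-cKO (43.4%), 10 and 15 in Sox2-cKO (39.7%) and 12 and 7 in Nanog-cKO (24.7%). The share of the 37 members was above that of all genes in every one of the 9, without matching on expression level.

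**Figure D1:**
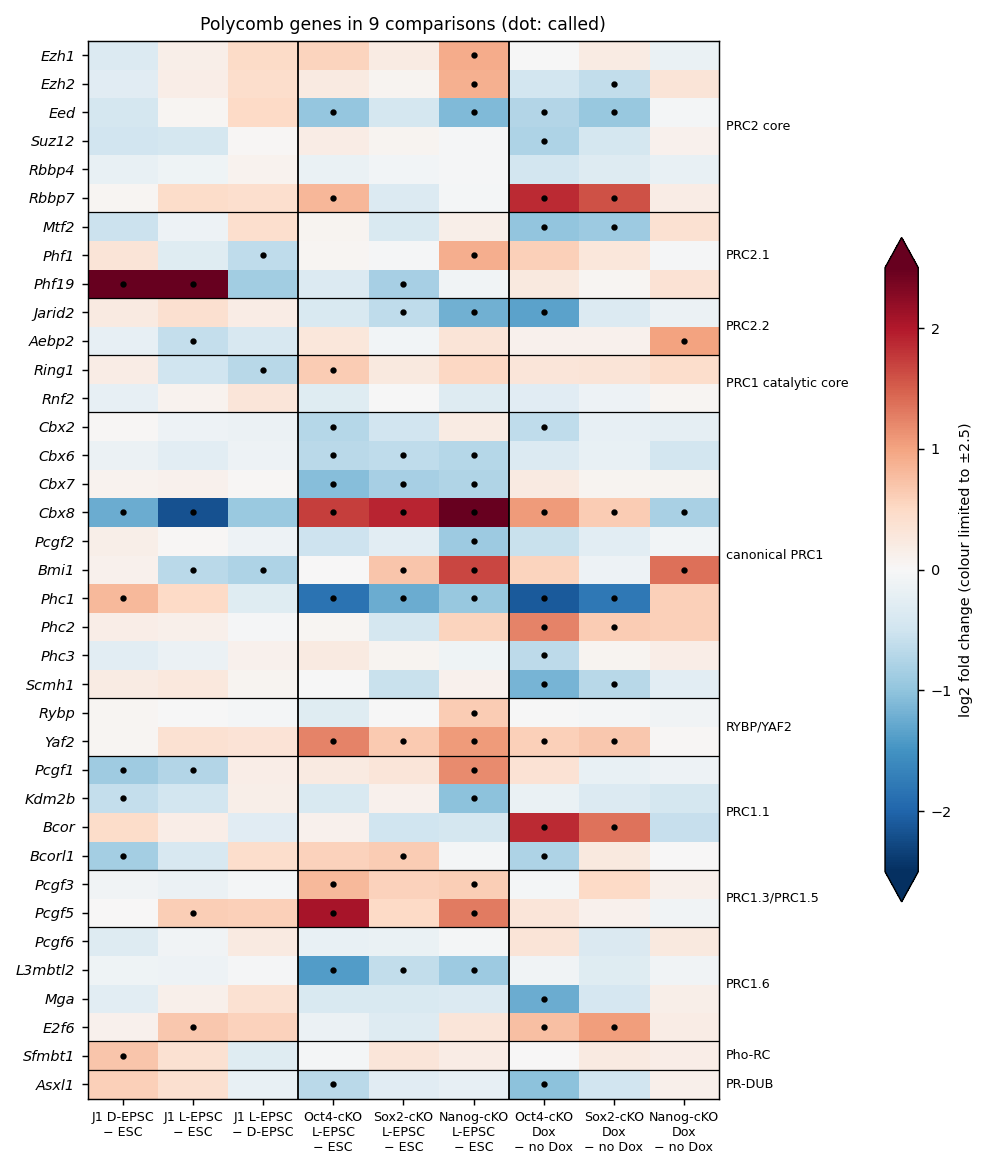
Log2 fold change of each of the 37 members (rows, grouped by complex) in the 9 comparisons (columns), with red for higher and blue for lower in the first-named group, colours limited to ±2.5, and a dot where the member was called. Most rows hold both colours, and the 3 columns on the right show 17, 11 and 3 dots for Dox in Oct4-cKO, Sox2-cKO and Nanog-cKO.

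Per kb of exon, Rbbp7 was the most abundant member in both tables, with a mean over the groups of 1051 normalized counts per kb in J1 and 2741 in the tet-off lines. Phc1, Eed and Mtf2 were among the highest 5 in both tables as well. At the low end, Cbx8 and Phf19 had about 7 normalized counts per kb in J1, and Cbx8 had 18.9 in the tet-off lines. The spread of a member over the groups, taken as its highest minus its lowest group mean on the log2 scale, had a median of 0.46 in J1 and 1.34 in the tet-off lines, beside 0.42 and 1.20 for all genes with a mean of at least 100. The widest spreads in the tet-off lines were those of Cbx8 (4.29) and Phc1 (4.26).

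Within the PRC2 core, the histone-binding subunit Rbbp7 rose and the scaffold Eed fell with Dox in both the Oct4-cKO and the Sox2-cKO line. Rbbp7 (X chromosome) rose from 5374 and 5215 to 19279 and 19513 normalized counts in Oct4-cKO (1.87 ± 0.03, adjusted p = 1.22e-16), a 3.66-fold change. In Sox2-cKO it rose from 6709.7 and 6692 to 20299.8 and 20359 (1.601 ± 0.033, adjusted p = 1.93e-15). In Nanog-cKO the values were 2803 and 2639 without and 2992 and 3160.0 with Dox, and the call was not reached. The 4 Dox-treated libraries of the first 2 lines thus lay above every other tet-off library, and the Dox effect differed from that of Nanog-cKO by 1.70 ± 0.05, adjusted p = 9.01e-14 for Oct4-cKO and by 1.42 ± 0.05, adjusted p = 1.67e-12 for Sox2-cKO on the log2 scale. Rbbp7 was already unequal among the tet-off ESCs, at 8622 and 8312 in Sox2-cKO against 2964 and 3016 in Oct4-cKO and 2769.7 and 2823 in Nanog-cKO. Conversion brought a rise in Oct4-cKO, to 5374 and 5215 (0.82 ± 0.03, adjusted p = 3.79e-12). Its paralogue Rbbp4 was 5139.6 and 5110.4 without and 3728 and 3777 with Dox in Oct4-cKO, so that Rbbp7 came from 75.6% ± 0.32 to 94.0% ± 0.0047 of the length-scaled counts of the pair. Txlng shares 6.0% of the exonic bases of Rbbp7 on the other strand, and the strand setting of the counting was not given.

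Eed, without which PRC2 has no methyltransferase activity, went down at both steps. It fell on conversion from 2619 and 2587 to 1335 and 1312 in Oct4-cKO (-0.98 ± 0.05, adjusted p = 2.53e-10) and from 2514 and 2546 to 1238 and 1133 in Nanog-cKO (-1.09 ± 0.05, adjusted p = 6.98e-11), while the fall in Sox2-cKO from 2077 and 2090.4 to 1585 and 1482 did not pass the fold threshold. It fell further with Dox, to 755 and 847 in Oct4-cKO (-0.73 ± 0.05, adjusted p = 9.95e-09) and to 805 and 784 in Sox2-cKO (-0.95 ± 0.05, adjusted p = 5.51e-10). Nanog-cKO kept 1115 and 1169 with Dox. The lowest ESC library of the 3 lines stood at 2077 and the highest Dox-treated library of Oct4-cKO and Sox2-cKO at 847. The conversion and Dox comparisons of a line share the untreated L-EPSC libraries and are given side by side only.

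The catalytic pair behaved less uniformly. Ezh2, the main methyltransferase of dividing cells, went from 2191 and 2247 to 1524 and 1389 with Dox in Sox2-cKO (-0.61 ± 0.06, adjusted p = 1.73e-07), a call lost at the fold threshold without replicate 2 of either group (-0.54 without that of the Dox group and -0.59 without that of the untreated group). In Oct4-cKO it went from 2289 and 2205 to 1723 and 1544, within the fold threshold (-0.46 ± 0.06, adjusted p = 3.42e-06), and in Nanog-cKO from 2100.4 and 2108 to 2584 and 2702 (0.33 ± 0.06, adjusted p = 0.000342). Both Dox effects differed from that in Nanog-cKO, by -0.79 ± 0.08 (adjusted p = 6.85e-07) and -0.94 ± 0.08 (adjusted p = 1.31e-07). Ezh1, the weaker enzyme that is typical of cells that do not divide, was 943 and 929 and 928 and 941 in the same Oct4-cKO groups. In Nanog-cKO conversion both genes rose, Ezh2 from 1185 and 1103 to 2100.4 and 2108 (0.88 ± 0.06, adjusted p = 1.51e-09) and Ezh1 from 568 and 509 to 1002 and 1039 (0.92 ± 0.06, adjusted p = 7.3e-10). The Nanog-cKO ESC libraries held the lowest values of both genes among the tet-off libraries. Per exon length, Ezh2 made up 74.2% ± 0.30 of the pair without and 67.7% ± 1.91 with Dox in Oct4-cKO, 76.7% ± 0.52 and 65.3% ± 2.24 in Sox2-cKO, and 71.2% ± 0.47 and 77.6% ± 0.42 in Nanog-cKO. In J1 it made up 87.3% ± 0.027 in ESCs, 87.7% ± 0.13 in D-EPSCs and 87.4% ± 0.79 in L-EPSCs, differences smaller than the largest SD of this share.

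Suz12, the other obligate partner, was lower with Dox in Oct4-cKO, from 4821 and 4699 to 2750.0 and 2803 (-0.78 ± 0.04, adjusted p = 1.57e-11). In Sox2-cKO it went from 5042 and 5107 to 3855 and 3643, short of the fold threshold, and in Nanog-cKO from 3830.2 and 3883 to 4111 and 4158. In J1 no gene of the 6 passed the fold threshold in D-EPSCs or L-EPSCs against ESCs, although Suz12, Ezh2 and Rbbp4 had an adjusted p below 0.05 in both. Their J1 group means differed by at most 0.50 on the log2 scale, with D-EPSCs the lowest for 5 of the 6, all but Rbbp7.

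The summed level of 8 pluripotency markers moved with these results. The list includes Pou5f1, Sox2 and Nanog, so in each line it held the gene that Dox was used to turn off. It went from 51272 and 50077 to 6170.2 and 6246 with Dox in Oct4-cKO and from 55750.5 and 55751 to 11668 and 11169 in Sox2-cKO, with all 8 genes lower in each. In Nanog-cKO it went from 57110.3 and 56455 to 37018 and 35789, with 4 of 8 lower. Of 8 trophoblast markers, 5 were higher with Dox in Oct4-cKO (sums 4528 and 4342 to 26207 and 25852), 7 in Sox2-cKO (2149 and 2151 to 11448 and 11648) and 1 in Nanog-cKO (934 and 792 to 1152 and 1157). Of 12 proliferation genes, 6 were lower in Oct4-cKO (sums 54849 and 54255 to 39298 and 39650.0), and 5 in Sox2-cKO (59453 and 60289 to 44919 and 44147), and their sum in Nanog-cKO was 66948 and 66532 without and 63560.4 and 64735 with Dox. No marker of these 3 lists was at 0 in a tet-off group, and their part in the Dox results, here and below, was not tested.

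**Figure D2:**
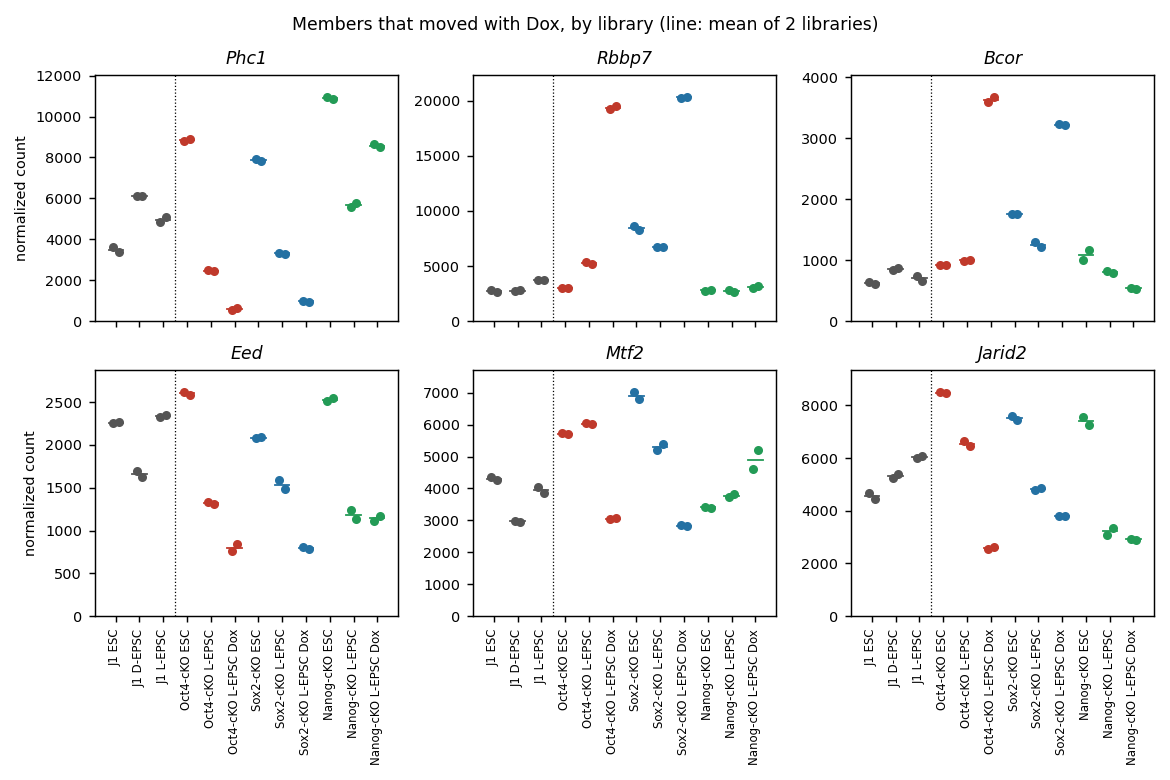
Normalized counts of Phc1, Rbbp7, Bcor, Eed, Mtf2 and Jarid2 in each of the 24 libraries, with the 12 groups along the horizontal axis, 1 point per library and a line at the mean of 2 libraries, on linear vertical axes from 0. Rbbp7 reaches 19279 to 20359 in the 4 Dox-treated libraries of Oct4-cKO and Sox2-cKO and stands at 2992 and 3160 in those of Nanog-cKO.

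Of the 5 accessory genes of PRC2, Mtf2 fell with Dox in both of these lines and Jarid2 in Oct4-cKO. Mtf2, the dominant Polycomb-like protein in these cells, was lower with Dox in Oct4-cKO, from 6037 and 6013 to 3049 and 3065 (-0.98 ± 0.04, adjusted p = 6e-12), and in Sox2-cKO, from 5208 and 5408 to 2853 and 2811 (-0.91 ± 0.04, adjusted p = 2.67e-11). It was 3739 and 3818 without and 4602 and 5190.2 with Dox in Nanog-cKO, where no call was made. The effect differed from Nanog-cKO by -1.35 ± 0.06, adjusted p = 2.26e-11 in Oct4-cKO and -1.28 ± 0.06, adjusted p = 7.96e-11 in Sox2-cKO. Tmed5 shares 7.5% of the exonic bases of Mtf2 on the other strand. The paralogues Phf1 and Phf19 were not called with Dox in any line. Phf1 rose on conversion in Nanog-cKO, from 113 and 127 to 198 and 255 (0.90 ± 0.15, adjusted p = 0.000112), a call lost when those groups were fitted alone (adjusted p = 0.0603). Mtf2 stayed at 85.7% ± 0.98 of the length-scaled counts of the 3 genes in Dox-treated Oct4-cKO cells and 78.4% ± 0.56 in Sox2-cKO, from 94.3% ± 0.65 and 88.6% ± 0.38 without Dox.

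Jarid2, a DNA-binding partner that helps to bring PRC2 to its targets, separated the Oct4-cKO line from the other two. With Dox it fell from 6631 and 6467 to 2531 and 2619.7 in Oct4-cKO (-1.35 ± 0.03, adjusted p = 1.07e-14), from 4774 and 4861 to 3799.6 and 3806 in Sox2-cKO (-0.34 ± 0.03, adjusted p = 3.86e-07, short of the fold threshold), and was 3093 and 3342 and 2921 and 2907 in Nanog-cKO. The Oct4-cKO effect minus that of Sox2-cKO was -1.01 ± 0.05, adjusted p = 2.41e-10. On conversion the order was different: Nanog-cKO fell from 7544 and 7265 to 3093 and 3342 (-1.20 ± 0.03, adjusted p = 7.6e-14), Sox2-cKO from 7599 and 7443 to 4774 and 4861 (-0.64 ± 0.03, adjusted p = 2.83e-10), and Oct4-cKO went from 8511 and 8458 to 6631 and 6467 without reaching the fold threshold.

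Aebp2, which sits beside Jarid2 in the same form of PRC2, was 1 of the 3 members called with Dox in Nanog-cKO. It rose from 2419 and 2289 to 4547 and 4875 (1.00 ± 0.04, adjusted p = 4.84e-11), and the 2 Dox libraries were the highest of all tet-off libraries. It was 2775 and 2696 without and 3003 and 2900.5 with Dox in Oct4-cKO, and the effect there minus that in Nanog-cKO was -0.89 ± 0.06, adjusted p = 3.19e-09. In J1 L-EPSCs it was 1221 and 1124 against 1733 and 1832 in ESCs (-0.60 ± 0.05, adjusted p = 5.71e-05), next to the fold threshold and inside it without ESC replicate 2 (-0.56) or L-EPSC replicate 2 (-0.54).

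Canonical PRC1 held the largest single change of the set with Dox, that of Phc1. Phc1, the Polyhomeotic protein of pluripotent cells (chr6:122267749-122290579 on NCBIM37, minus strand), stepped down on conversion and again with Dox in Oct4-cKO: from 8819.9 and 8894 in ESCs to 2478 and 2425 in L-EPSCs (-1.85 ± 0.06, adjusted p = 2.25e-13) and to 516 and 627 with Dox (-2.11 ± 0.06, adjusted p = 3.19e-14). In Sox2-cKO the values were 7937 and 7812, then 3350.0 and 3297 (-1.24 ± 0.06, adjusted p = 6.31e-11), then 974 and 948 (-1.79 ± 0.06, adjusted p = 4.46e-13). Nanog-cKO also fell on conversion, from 10961 and 10872 to 5565 and 5785 (-0.94 ± 0.06, adjusted p = 8.48e-10). With Dox, however, it stood higher, at 8652 and 8511 (0.60 ± 0.06, adjusted p = 9.2e-07), just short of the fold threshold and called after median centring. No group overlapped its neighbour in any of these series, but the same held for at least 30 of the 37 members in every comparison. How many of all genes did so was not counted. The Dox effect of Oct4-cKO minus that of Nanog-cKO was -2.70 ± 0.08, adjusted p = 2.91e-13, and that of Sox2-cKO minus that of Nanog-cKO was -2.39 ± 0.08, adjusted p = 2.72e-12. Phc1 lies 366.9 kb from Nanog on the same chromosome. Nanog itself was lower in all 3 Dox comparisons, at 691 and 726 in Oct4-cKO, 654 and 733 in Sox2-cKO and 3166 and 3112 in Nanog-cKO.

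The paralogue Phc2 moved opposite to Phc1 with Dox in Oct4-cKO and Sox2-cKO, while in Nanog-cKO both were higher, short of the fold threshold. With Dox it rose from 491 and 494 to 1180.4 and 1162 in Oct4-cKO (1.25 ± 0.09, adjusted p = 6.28e-09) and from 461 and 534 to 729 and 810.3 in Sox2-cKO (0.63 ± 0.09, adjusted p = 2.48e-05), the latter call being lost when the 2 Sox2-cKO groups were fitted alone (adjusted p = 0.0517) and without Dox replicate 2 (0.56) or untreated replicate 1 (0.53). In Nanog-cKO it went from 603 and 592 to 963 and 846 (0.59 ± 0.09, adjusted p = 0.000109), short of the threshold in limma but called by edgeR and DESeq2. Phc3 was called in Oct4-cKO, falling from 482 and 542 to 362 and 292 (-0.65 ± 0.09, adjusted p = 9.42e-06), and stood at 539 and 577 and 579 and 584 in Sox2-cKO. Without Dox replicate 2 the fall was -0.50 and without untreated replicate 2 it was -0.57, both inside the fold threshold. The Oct4-cKO effect on Phc3 minus that of Sox2-cKO was -0.71 ± 0.12, adjusted p = 0.000333. Scmh1, another protein of the same assembly with the SAM domain that Phc proteins use to join up, fell from 307 and 254 to 121 and 128 in Oct4-cKO (-1.16 ± 0.10, adjusted p = 6.77e-08) and from 401 and 387 to 244 and 244 in Sox2-cKO (-0.69 ± 0.10, adjusted p = 3.42e-05).

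The make-up of the Phc family turned over in Oct4-cKO. Per exon length, Phc1 supplied 94.5% ± 0.33 of the family in ESCs, 81.5% ± 0.69 in untreated L-EPSCs and 36.3% ± 3.82 with Dox, and Phc2 supplied 3.83% ± 0.26, 12.3% ± 0.14 and 56.2% ± 2.45. The sum of the family went from 1769.8 to 568 and then 297 normalized counts per kb. In Sox2-cKO, Phc1 supplied 91.9% ± 0.087, 85.2% ± 1.19 and 54.9% ± 1.88, and the sum went from 1618 to 736 and 331. In Nanog-cKO, Phc1 kept 90.3% ± 0.37 without and 90.9% ± 0.54 with Dox, and the sum was 2151, 1186 and 1782. Shares were taken from exon lengths of the whole gene and do not know which transcript is made.

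**Figure D3:**
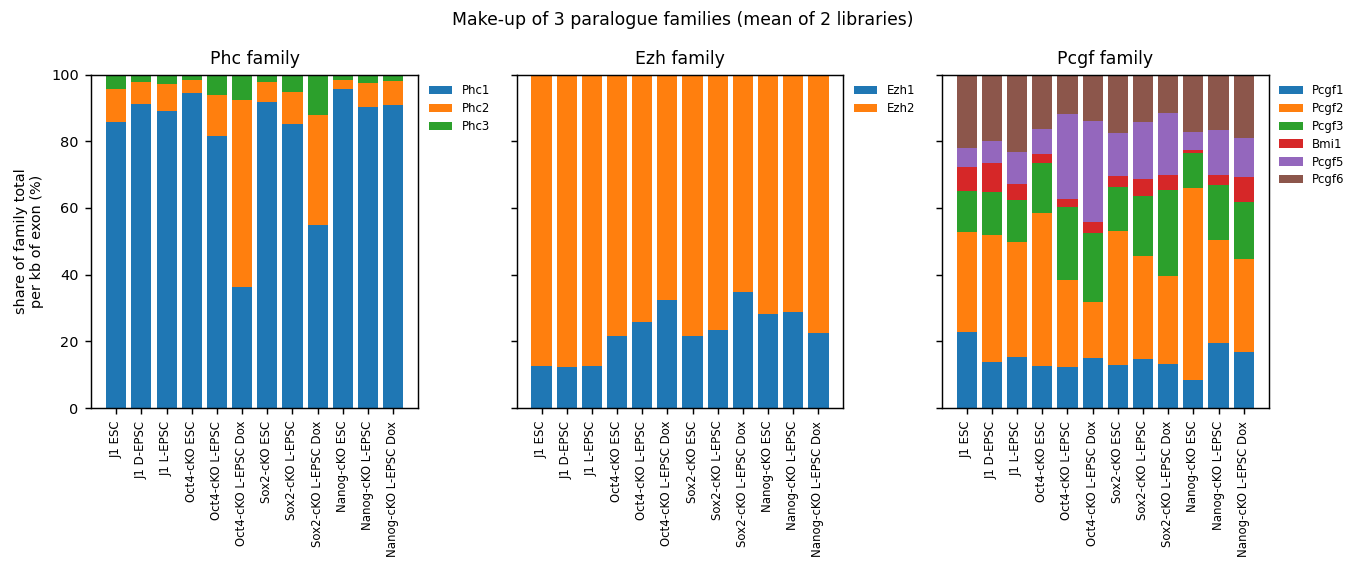
Share of each paralogue in the length-scaled counts of the Phc, Ezh and Pcgf families, as stacked bars from 0 to 100% for each of the 12 groups, each bar the mean of 2 libraries. Phc1 fills 36.3% of its family in Dox-treated Oct4-cKO cells and 54.9% in Dox-treated Sox2-cKO cells, against 81.5% to 95.8% in the other tet-off groups.

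Cbx7 and Cbx6 fell on conversion in all 3 lines and were not called with Dox. Cbx7, the main reader of the PRC2 mark in ESCs, went from 2918 and 3018 to 1416 and 1409 in Oct4-cKO (-1.07 ± 0.05, adjusted p = 2.15e-11), from 3091 and 2993 to 1672 and 1742 in Sox2-cKO (-0.83 ± 0.05, adjusted p = 1.1e-09) and from 2718 and 2777 to 1695 and 1563 in Nanog-cKO (-0.76 ± 0.05, adjusted p = 1.82e-09). The lowest tet-off ESC library stood at 2718 and the highest tet-off L-EPSC library, with or without Dox, at 1809. With Dox the values were 1709 and 1595 in Oct4-cKO, 1809 and 1774 in Sox2-cKO and 1781 and 1630.0 in Nanog-cKO. Cbx6, its neighbour 81.1 kb away on chromosome 15, fell from 990.2 and 964 to 602 and 621 (-0.68 ± 0.06, adjusted p = 7.7e-08), from 987 and 1020.5 to 650.3 and 645 (-0.63 ± 0.06, adjusted p = 3.26e-07) and from 913 and 955 to 549 and 589 (-0.71 ± 0.06, adjusted p = 4.33e-08). The gene Npcd shares 18.7% of the exonic bases of Cbx6 on the same strand, so its counts are less certain.

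Cbx8, the Cbx gene with the fewest reads, rose on conversion in all 3 lines. It went from 23.0 and 26.1 to 75.4 and 92.5 in Oct4-cKO (1.73 ± 0.24, adjusted p = 1.74e-05), from 17.2 and 18.2 to 74.5 and 62.9 in Sox2-cKO (1.89 ± 0.24, adjusted p = 1.01e-05) and from 6.27 and 10.1 to 83.1 and 94.8 in Nanog-cKO (3.32 ± 0.24, adjusted p = 8.28e-09). ESC and L-EPSC libraries did not overlap in any line, as for 31, 33 and 32 of the 37 members in Oct4-cKO, Sox2-cKO and Nanog-cKO. The share over all genes was not counted, so this does not set Cbx8 apart. The rise was smaller in Oct4-cKO than in Nanog-cKO, with a difference of -1.59 ± 0.35 (adjusted p = 0.00234), and smaller in Sox2-cKO, with a difference of -1.43 ± 0.35 (adjusted p = 0.0054). With Dox it rose again in Oct4-cKO, to 173 and 178 (1.06 ± 0.24, adjusted p = 0.00185), and fell in Nanog-cKO, to 43.0 and 58.5 (-0.81 ± 0.24, adjusted p = 0.0221), a call lost when those groups were fitted alone (adjusted p = 0.17), without Dox replicate 1 (0.153) and without untreated replicate 2 (0.115). In Sox2-cKO the value with Dox was 106 and 108 (0.63 ± 0.24, adjusted p = 0.0499), at the edge of the threshold and lost without any 1 of the 4 libraries (adjusted p from 0.0602 to 0.203). Even so Cbx8 made up only 7.76% ± 0.40 of the length-scaled counts of the 4 Cbx members at its highest, in Dox-treated Oct4-cKO cells, from 0.62% ± 0.05 in the ESCs of that line.

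Cbx2, which lies 5.0 kb from Cbx8 on chromosome 11, moved opposite to it in Oct4-cKO. It fell from 604 and 563 to 361 and 352 on conversion (-0.71 ± 0.08, adjusted p = 2.64e-06) and to 218 and 241 with Dox (-0.64 ± 0.08, adjusted p = 8.83e-06), where it was -0.56 without Dox replicate 1. In Sox2-cKO it went from 437 and 436 to 323 and 306 and 271 and 271, and in Nanog-cKO from 439 and 433 to 481 and 528 and 469 and 393, with no call. Of 8 pluripotency markers 3, 1 and 5 were lower after conversion in Oct4-cKO, Sox2-cKO and Nanog-cKO, and of 6 primitive endoderm markers 4, 2 and 3 were higher, while 3 were lower in Sox2-cKO and 1 in Nanog-cKO, and their part in the conversion results was not tested. The sum of the 4 Cbx members per kb went from 1082 to 577 on conversion in Oct4-cKO, from 1069.7 to 646 in Sox2-cKO and from 978 to 663 in Nanog-cKO. In J1 it was 990.0 in ESCs, 1009 in D-EPSCs and 997 in L-EPSCs, so that the fall was not seen there.

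**Figure D4:**
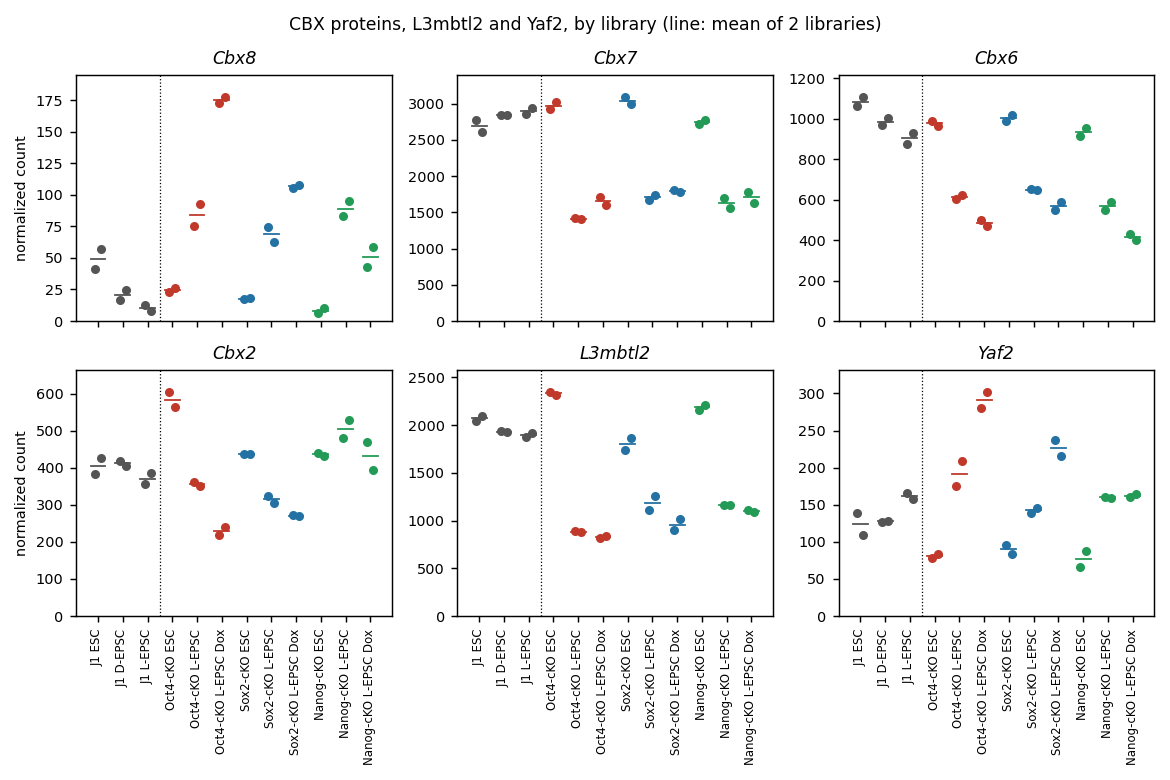
Normalized counts of Cbx8, Cbx7, Cbx6, Cbx2, L3mbtl2 and Yaf2 in each of the 24 libraries, with the 12 groups along the horizontal axis, 1 point per library and a line at the mean of 2 libraries, on linear vertical axes from 0. Cbx7 lies between 2610 and 3091 in the J1 and tet-off ESC libraries and at or below 1809 in the tet-off L-EPSC libraries, and Cbx8 rises from ESCs to L-EPSCs in each tet-off line and falls in J1.

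The Pcgf subunits, which decide the form of PRC1, shifted in their shares on conversion. Pcgf2, the canonical subunit of ESCs, fell in Nanog-cKO from 1948 and 1983 to 1047 and 1055 (-0.90 ± 0.05, adjusted p = 6.83e-10), and went from 1489 and 1379 to 1006 and 987 in Oct4-cKO and from 1248 and 1288 to 1004 and 1116 in Sox2-cKO, both short of the fold threshold. Pcgf5, which with Pcgf3 forms the variant complexes PRC1.3 and PRC1.5, rose from 109.8 and 123 to 485 and 489.6 in Oct4-cKO (2.06 ± 0.11, adjusted p = 1.27e-10) and from 92.0 and 88.6 to 247 and 201 in Nanog-cKO (1.29 ± 0.11, adjusted p = 4.56e-08). In Sox2-cKO it went from 187 and 226 to 289.5 and 289 (0.49 ± 0.11, adjusted p = 0.00179), short of the fold threshold, and the Oct4-cKO rise was larger than this by 1.57 ± 0.15, adjusted p = 1.75e-06. Pcgf3 rose in Oct4-cKO from 1289 and 1338 to 2309 and 2318 (0.82 ± 0.04, adjusted p = 2.09e-10) and in Nanog-cKO from 1019 and 999 to 1552 and 1548 (0.62 ± 0.04, adjusted p = 7.18e-09), and was 1106 and 1197 and 1669 and 1746 in Sox2-cKO. With Dox none of these 3 genes was called.

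In shares of the 6 Pcgf members per kb, Pcgf2 went from 45.7% ± 2.84 in Oct4-cKO ESCs to 26.2% ± 0.32 in L-EPSCs and 16.9% ± 0.47 with Dox, while Pcgf5 went from 7.42% ± 0.53 to 25.6% ± 0.23 and 30.3% ± 0.11. In Nanog-cKO, Pcgf2 went from 57.4% ± 1.15 to 31.0% ± 0.64 and Pcgf5 from 5.28% ± 0.10 to 13.2% ± 1.73 on conversion. Sox2-cKO moved less, with Pcgf2 at 40.2% ± 0.66 and 31.0% ± 1.25. In J1 ESCs, Pcgf2 held 30.1% ± 0.96 and Pcgf1 22.8% ± 0.38. In Dox-treated Oct4-cKO cells Pcgf5 stood above Pcgf2 per kb, but without division by length it was below, at 13.4% against 15.0%. Likewise Pcgf2 had the largest share in the 4 ESC groups per kb, but without division by length Pcgf3 led in J1 ESCs, at 31.7% against 28.1%.

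Bmi1, the other canonical Pcgf protein and best known from stem cells of adult tissues, was low in the tet-off ESCs. It rose on conversion in Nanog-cKO from 47.0 and 28.0 to 120.4 and 116 (1.68 ± 0.20, adjusted p = 2.28e-06) and again with Dox to 315 and 302 (1.38 ± 0.20, adjusted p = 5.82e-05). Its share of the family in that line went from 0.95% ± 0.33 to 3.02% ± 0.029 and 7.49% ± 0.11. In Oct4-cKO, where Bmi1 was 102 and 102 and 111 and 95.2, the conversion effect minus that of Nanog-cKO was -1.66 ± 0.28 (adjusted p = 0.000246). The Dox effect of Sox2-cKO minus that of Nanog-cKO was -1.50 ± 0.28 (adjusted p = 0.00048). The rise on conversion in Nanog-cKO was not called when its groups were fitted alone (adjusted p = 0.0606). The rise on conversion in Sox2-cKO, from 123 and 115 to 230.1 and 164 (0.70 ± 0.20, adjusted p = 0.00968), was lost without replicate 1 of the untreated Sox2-cKO L-EPSCs, where it was 0.45 (adjusted p = 0.164), and without ESC replicate 2 (adjusted p = 0.0799).

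The catalytic subunits of PRC1 were steadier. Rnf2, the main ubiquitin ligase of ESCs, was called in no comparison and held between 82.4% ± 1.27 and 94.9% ± 0.29 of the pair's length-scaled counts in the tet-off groups. The paralogue Ring1 was higher after conversion in Oct4-cKO, 194 and 173 against 138 and 102 (0.63 ± 0.19, adjusted p = 0.0143), and J1 L-EPSCs had less of it than D-EPSCs, 120.3 and 139 against 195 and 223 (-0.69 ± 0.13, adjusted p = 0.00475), and each call was lost without 1 of 2 libraries. These were ESC replicate 2 (adjusted p = 0.205) or untreated L-EPSC replicate 1 (0.119) for Oct4-cKO, and D-EPSC replicate 2 (0.0738) or L-EPSC replicate 1 (0.0598) for J1.

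Of the subunits shared by all variant forms of PRC1, Yaf2 rose on conversion in all 3 lines. It went from 78.4 and 83.2 to 175 and 209 in Oct4-cKO (1.23 ± 0.14, adjusted p = 1.39e-06), from 95.9 and 84.1 to 139 and 146 in Sox2-cKO (0.66 ± 0.14, adjusted p = 0.0012) and from 65.9 and 87.4 to 161 and 159 in Nanog-cKO (1.07 ± 0.14, adjusted p = 7.91e-06). With Dox it reached 279.8 and 302 in Oct4-cKO (0.60 ± 0.14, adjusted p = 0.00194) and 238 and 216 in Sox2-cKO (0.66 ± 0.14, adjusted p = 0.000967), the former call being lost in DESeq2, and was 161 and 164 in Nanog-cKO. Without ESC replicate 2 the Sox2-cKO conversion was 0.57, and without Dox replicate 1 the Sox2-cKO Dox effect was 0.60, both short of the threshold. For Dox in Oct4-cKO the value was 0.55 without Dox replicate 2 and 0.47 without untreated replicate 1. The paralogue Rybp rose in Nanog-cKO conversion, from 768 and 883 to 1264 and 1311 (0.64 ± 0.06, adjusted p = 2.2e-07; 0.54 without ESC replicate 1), and stood at 1747 and 1690.1 and 1400.3 and 1375 in Oct4-cKO. A copy on chromosome 13 matches 99.8% of the Rybp transcript at 97.1% identity, so reads of Rybp may have been split. Yaf2 supplied 10.1% ± 0.59 of the pair in Oct4-cKO ESCs, 24.7% ± 2.60 in L-EPSCs and 33.5% ± 0.96 with Dox.

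In PRC1.1, the form that Kdm2b brings to CpG islands, the corepressor Bcor (X chromosome) was the third gene to change most with Dox. It rose from 992 and 1002 to 3591 and 3676 in Oct4-cKO (1.86 ± 0.06, adjusted p = 7.99e-14) and from 1297 and 1212 to 3227 and 3209 in Sox2-cKO (1.36 ± 0.06, adjusted p = 7.06e-12). In Nanog-cKO it went down, from 815 and 786 to 547 and 528 (-0.57 ± 0.06, adjusted p = 8.74e-07), short of the fold threshold. The effects differed from Nanog-cKO by 2.44 ± 0.08, adjusted p = 5.66e-13 in Oct4-cKO and by 1.93 ± 0.08, adjusted p = 1.86e-11 in Sox2-cKO. Its paralogue Bcorl1 fell in Oct4-cKO, from 842 and 861 to 502 and 492 (-0.78 ± 0.09, adjusted p = 1.27e-06), and was 735 and 783 and 846 and 959 in Sox2-cKO, and the Oct4-cKO effect minus that of Sox2-cKO was -1.02 ± 0.12, adjusted p = 8.45e-06. On conversion in Sox2-cKO, Bcorl1 rose from 526 and 452 to 735 and 783 (0.64 ± 0.09, adjusted p = 1.85e-05), and was 0.53 without ESC replicate 2 and 0.59 without untreated L-EPSC replicate 2. Bcor thus went from 58.1% ± 0.21 to 89.6% ± 0.29 of the pair in Oct4-cKO. Kdm2b, the CpG-binding subunit, fell in Nanog-cKO conversion, from 2754 and 2695 to 1344 and 1321 (-1.03 ± 0.04, adjusted p = 1.14e-11), where Pcgf1, its Pcgf partner, rose from 82.6 and 65.0 to 167 and 166 (1.17 ± 0.14, adjusted p = 4.04e-06). A copy on chromosome 4 matches 31.4% of the Kdm2b transcript.

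In PRC1.6, the form with its own DNA-binding factors, L3mbtl2 fell on conversion in all 3 lines and the factors themselves changed with Dox. L3mbtl2, a reader subunit of the complex, went from 2346 and 2315 to 890.0 and 876 in Oct4-cKO (-1.40 ± 0.06, adjusted p = 1.12e-11), from 1737 and 1865 to 1106 and 1260.0 in Sox2-cKO (-0.61 ± 0.06, adjusted p = 5.94e-07) and from 2161 and 2208 to 1166 and 1158 in Nanog-cKO (-0.91 ± 0.06, adjusted p = 2.59e-09). The Sox2-cKO change was next to the fold threshold and fell short of it in edgeR (-0.58), without ESC replicate 2 (-0.56) and without untreated L-EPSC replicate 1 (-0.51). Chadl shares 17.2% of the exonic bases of L3mbtl2 on the other strand. Mga, the E-box factor, fell with Dox in Oct4-cKO from 3529 and 3575 to 1514 and 1497 (-1.24 ± 0.03, adjusted p = 5.33e-15), went from 4383 and 4503 to 3314 and 3370.4 in Sox2-cKO, and was 4172 and 4111 and 4504 and 4616 in Nanog-cKO. The Oct4-cKO effect minus that of Sox2-cKO was -0.83 ± 0.04, adjusted p = 4.59e-10. E2f6 rose with Dox in both Oct4-cKO, from 261 and 284 to 418 and 502 (0.75 ± 0.11, adjusted p = 2.64e-05), and Sox2-cKO, from 245 and 209.5 to 465 and 466 (1.04 ± 0.11, adjusted p = 8.5e-07). Pcgf6 was not called in any line, yet its Dox effect in Oct4-cKO minus that in Sox2-cKO was 0.67 ± 0.08, adjusted p = 8.35e-06.

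Outside PRC1 and PRC2, Asxl1, the partner of the enzyme that removes ubiquitin from H2A, fell in Oct4-cKO on conversion, from 3054 and 2827 to 1863 and 1817 (-0.67 ± 0.04, adjusted p = 5.17e-10), and with Dox, to 906 and 890.2 (-1.03 ± 0.04, adjusted p = 2.33e-12). In Sox2-cKO it went from 1955 and 2006 to 1423 and 1407 with Dox, short of the fold threshold. A copy on the X chromosome matches 13.5% of the Asxl1 transcript. Sfmbt1, of Pho-RC, was called only in J1 D-EPSCs, where it was 612 and 649 against 409.8 and 367 in ESCs (0.70 ± 0.08, adjusted p = 0.000253).

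Oct4-cKO and Sox2-cKO share no libraries, so their Dox results can be set against each other. In both, Rbbp7, Cbx8, Phc2, Yaf2, Bcor and E2f6 were called higher, and Eed, Mtf2, Phc1 and Scmh1 lower. These 10 genes were 58.8% of the 17 called in Oct4-cKO and 90.9% of the 11 called in Sox2-cKO, and no member was called in opposite directions. Over all genes tested, 3396 were called in the same direction in both, 50.7% of the 6699 called in Oct4-cKO and 61.0% of the 5568 called in Sox2-cKO, and 108 in opposite directions. These shares were not matched on expression level. After median centring the Sox2-cKO calls of Cbx8 (0.57), Phc2 (0.56) and Yaf2 (0.599) were lost, as was that of Yaf2 in Oct4-cKO (0.54). Tests of the difference itself called 6 members between the Dox effects of Oct4-cKO and Sox2-cKO (against 12.9% of all genes), 18 between Oct4-cKO and Nanog-cKO (against 22.6%) and 13 between Sox2-cKO and Nanog-cKO (against 18.3%). By adjusted p alone these were 17, 25 and 21 members, against 24.5%, 33.3% and 29.4% of all genes. The 6 were Jarid2, Bcorl1, Mga and Phc3, whose effect was the lower in Oct4-cKO, and Phc2 and Pcgf6, whose effect was the higher there. For conversion the same tests called 5 members between Oct4-cKO and Sox2-cKO (against 10.0%), 13 between Oct4-cKO and Nanog-cKO (against 14.7%) and 17 between Sox2-cKO and Nanog-cKO (against 14.8%), and 19, 24 and 24 by adjusted p alone (against 20.2%, 25.8% and 25.5%). Pairs of these differences share 1 line and are not independent.

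**Figure D5:**
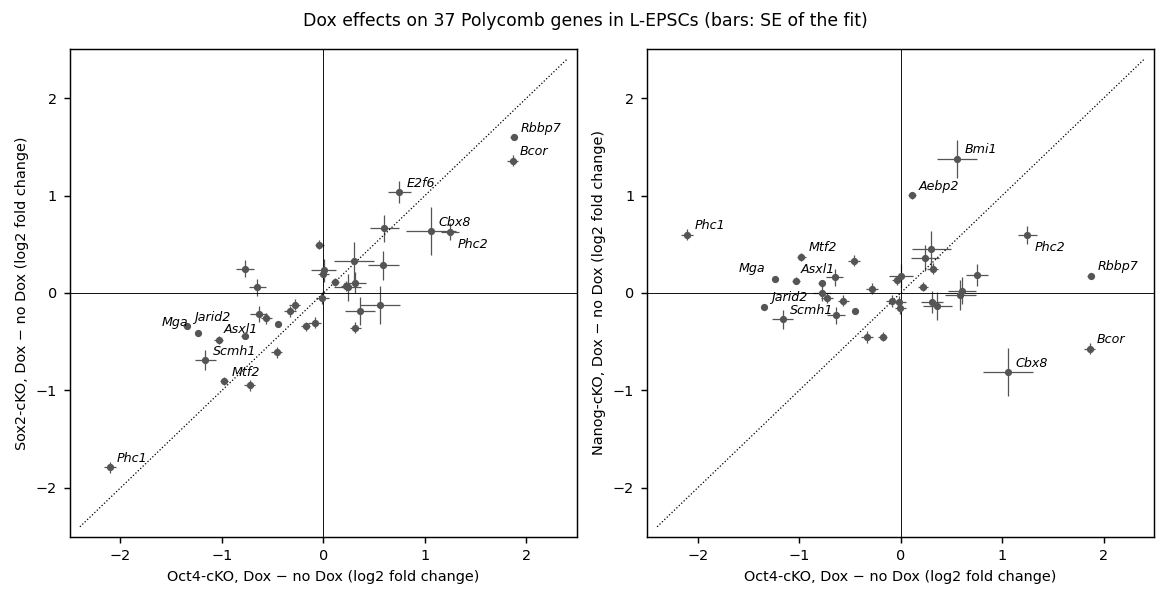
Dox effect on each of the 37 members as log2 fold change (Dox minus no Dox L-EPSCs), Oct4-cKO on the horizontal axes against Sox2-cKO (left) and Nanog-cKO (right), with standard errors as bars. Rbbp7 and Bcor lie far to the right and Phc1 far to the left in both panels, while on the Nanog-cKO axis all 3 lie between -0.57 and 0.60.

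J1 cells gave a different list. Against ESCs, both EPSCs had more Phf19 and less Cbx8 and Pcgf1. These 2 comparisons share the J1 ESC libraries. Phf19, the third Polycomb-like protein, was nearly absent from J1 ESCs, with 10.8 and 1.84 normalized counts (12 and 2 reads), and stood at 62.3 and 69.5 in D-EPSCs (3.53 ± 0.61, adjusted p = 0.00256) and 31.9 and 40.2 in L-EPSCs (2.67 ± 0.61, adjusted p = 0.00964). The ESC library with 2 reads sets the size of the change: without it the log2 fold change of D-EPSCs was 2.50 and that of L-EPSCs 1.64, and without the other 4.55 and 3.69. Both calls were lost when only the groups compared were fitted (adjusted p = 0.0567 and 0.113) and without either EPSC library (from 0.106 to 0.175). The lowest tet-off library held 111, and Phf19 was 474 and 432 in Sox2-cKO ESCs against 257 and 254 after conversion (-0.82 ± 0.14, adjusted p = 0.000129).

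Cbx8 went the other way in J1 than in the tet-off lines, at 41.3 and 57.2 in ESCs, 16.3 and 24.5 in D-EPSCs (-1.24 ± 0.39, adjusted p = 0.0382) and 12.3 and 8.04 in L-EPSCs (-2.18 ± 0.39, adjusted p = 0.0029). No ESC library overlapped an EPSC library, as for 31 of the 37 members with D-EPSCs and 34 with L-EPSCs. Here too the share over all genes was not counted. The D-EPSC call was lost on leaving out any of the 4 libraries (log2 fold change from -1.52 to -0.96). The L-EPSC call was lost without ESC replicate 2 (-1.95) or L-EPSC replicate 2 (-1.90). Pcgf1 fell from 216 and 229 in ESCs to 113 and 124 in D-EPSCs (-0.90 ± 0.12, adjusted p = 0.000562) and 133 and 133 in L-EPSCs (-0.74 ± 0.12, adjusted p = 0.0016), and kept both calls without any 1 library. Of the 4 PRC1.1 genes 3 were called lower in D-EPSCs than in ESCs. The others were Bcorl1, 612 and 669.5 in ESCs against 350.2 and 356 (-0.86 ± 0.07, adjusted p = 4.78e-05), and Kdm2b, 2106 and 2135 against 1348 and 1449.9 (-0.60 ± 0.05, adjusted p = 5.81e-05). Kdm2b sat on the fold threshold and fell just inside it in DESeq2 and after median centring. It was -0.55 without D-EPSC replicate 1 and -0.59 without ESC replicate 2. The fourth, Bcor, rose from 646 and 600.4 in ESCs to 837 and 873 in D-EPSCs (0.46), short of the fold threshold.

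Phc1 was higher in D-EPSCs, 6118 and 6104, than in J1 ESCs, 3632 and 3358 (0.81 ± 0.04, adjusted p = 2.85e-06), and stood at 4863 and 5066 in L-EPSCs. In L-EPSCs, E2f6 was 523 and 441 against 283 and 318 in ESCs (0.68 ± 0.12, adjusted p = 0.00239) and Pcgf5 148 and 178 against 116 and 96.8 (0.61 ± 0.17, adjusted p = 0.02), the former lost without ESC replicate 1 (adjusted p = 0.0991) or 2 (0.0634) or L-EPSC replicate 1 (0.0727), and the latter without any 1 of the 4 libraries (0.0671 to 0.165). Bmi1 was lower in L-EPSCs, 202 and 198, than in ESCs, 291 and 349 (-0.67 ± 0.10, adjusted p = 0.00132), and than in D-EPSCs, 348 and 338 (-0.78 ± 0.10, adjusted p = 0.00095). The first difference was -0.54 without ESC replicate 2, and the second lost its call without either D-EPSC library (adjusted p = 0.0569 and 0.0526). L-EPSCs also had less Phf1 than D-EPSCs, 157 and 159.7 against 247 and 246 (-0.63 ± 0.11, adjusted p = 0.00346), a call lost without any 1 of the 4 libraries (0.0513 to 0.0621). Phf19, Cbx8, Bmi1 and Pcgf1 were called in one direction between L-EPSCs and ESCs in J1 and in the other in at least 1 tet-off line, and this difference could not be tested across the tables. Of the 10 fibroblast markers 8 were at lower levels in L-EPSCs relative to ESCs, and of the 10 macrophage markers 10 were higher in D-EPSCs and 8 in L-EPSCs. Their part in the J1 results was not tested.

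Other genes of the Polycomb pathway, 37 tested of 41 listed, were called in shares of 35.1% in J1 D-EPSCs and 29.7% in J1 L-EPSCs against ESCs. Over all genes these shares were 20.7% and 20.3%. On conversion the list had 32.4%, 32.4% and 37.8% in Oct4-cKO, Sox2-cKO and Nanog-cKO, beside 28.4%, 19.6% and 26.9% of all genes. With Dox it had 32.4%, 29.7% and 10.8% in the same order, beside 27.9%, 23.2% and 9.94%. These shares were not matched on expression level. Epop, a PRC2 partner of ESCs, was lower after conversion in all 3 lines, from 6991 and 7297 to 1521 and 1529 in Oct4-cKO (-2.23 ± 0.04, adjusted p = 9.47e-16), from 2507 and 2581 to 1332 and 1230.1 in Sox2-cKO (-0.99 ± 0.04, adjusted p = 2.64e-11) and from 8859 and 9012 to 1296 and 1354 in Nanog-cKO (-2.75 ± 0.04, adjusted p = 9.18e-17). Scml2 rose from 84.7 and 57.0 to 898 and 905 in Oct4-cKO (3.68 ± 0.13, adjusted p = 1.32e-12), from 206 and 207 to 819 and 883 in Sox2-cKO (2.04 ± 0.13, adjusted p = 4.08e-09) and from 61.7 and 74.0 to 256 and 278 in Nanog-cKO (1.97 ± 0.13, adjusted p = 3.24e-09). With Dox, Sfmbt2, a Pho-RC gene known for its role in the placenta, rose from 1719.7 and 1576 to 4930.0 and 4833 in Oct4-cKO (1.57 ± 0.07, adjusted p = 1.42e-11) and from 1390.3 and 1309 to 6421 and 6303 in Sox2-cKO (2.24 ± 0.07, adjusted p = 3.24e-13). Auts2, which makes a variant PRC1 activating, rose from 246 and 192 to 1180.4 and 1204 (2.45 ± 0.10, adjusted p = 4.93e-12) and from 299 and 273 to 855 and 852 (1.57 ± 0.10, adjusted p = 1.93e-09) in the same lines.

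Among genes that Polycomb is known to hold silent, most called genes fell with Dox in Oct4-cKO and Sox2-cKO, and most called Hox genes rose on conversion. Of 28 tested developmental regulators of the tet-off table, 10 fell and 1 rose with Dox in Oct4-cKO, 9 fell and 2 rose in Sox2-cKO, and 2 fell and 1 rose in Nanog-cKO. Median log2 fold changes were -0.69, -0.80 and -0.24. The shares called were 39.3%, 39.3% and 10.7%, beside 27.9%, 23.2% and 9.94% of all genes. On conversion 7, 6 and 8 of the regulators rose and 4, 5 and 4 fell in Oct4-cKO, Sox2-cKO and Nanog-cKO. These were shares of 39.3%, 39.3% and 42.9%, beside 28.4%, 19.6% and 26.9% of all genes. In J1, of 25 regulators tested, 4 rose and 4 fell in D-EPSCs (32.0% called, beside 20.7%), and 7 rose and 3 fell in L-EPSCs (40.0% beside 20.3%). Of 38 tested Hox genes, the textbook Polycomb targets, 11, 9 and 14 rose and 1 fell on conversion in Oct4-cKO, Sox2-cKO and Nanog-cKO, and with Dox 9, 10 and 1 fell and 1, 1 and 2 rose. The shares called were 31.6%, 26.3% and 39.5% on conversion, beside 28.4%, 19.6% and 26.9% of all genes. With Dox they were 26.3%, 28.9% and 7.89%, beside 27.9%, 23.2% and 9.94%. Both lists held many low values. With Dox in Oct4-cKO the 38 Hox genes summed to 342 and 362. In that group 14 of them and 10 of the 29 listed regulators had 0 reads. In J1, of 37 Hox genes, 11 fell and 2 rose in D-EPSCs (35.1% called, beside 20.7% of all genes), and 18 fell in L-EPSCs (48.6% beside 20.3%). An example is Hoxc13, which in L-EPSCs fell from 203 and 186 to 19.5 and 33.3 (-2.88 ± 0.29, adjusted p = 0.000125). The summed Hox level was 1999 and 1879 in J1 ESCs, 901 and 992 in D-EPSCs and 564 and 598 in L-EPSCs. The summed fibroblast markers given above stood in the same order, from ESCs to D-EPSCs to L-EPSCs. Their part in the J1 Hox result was not tested. Cdkn2a and Cdkn2b, cell-cycle inhibitors of the INK4 locus that Bmi1 and Cbx7 are known to repress, were both higher after conversion in all 3 tet-off lines and called in no Dox or J1 comparison. Cdkn2a went from 76.3 and 73.5 to 229 and 175 in Oct4-cKO (1.41 ± 0.14, adjusted p = 2.32e-07), from 216 and 200.3 to 327 and 326 in Sox2-cKO (0.65 ± 0.14, adjusted p = 0.00117) and from 63.8 and 70.6 to 227 and 179 in Nanog-cKO (1.57 ± 0.14, adjusted p = 6.64e-08).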

How the data were processed

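RNA-seq libraries were made from poly(A) RNA with the Universal Plus mRNA-Seq kit. The authors trimmed reads with Trim Galore (0.6.4), aligned them with STAR (2.7.9a) to NCBIM37, counted reads per gene with HTSeq (0.11.2) and deposited 2 tables of counts divided by DESeq2 size factors, a signal on a linear scale. Whole reads came back from all deposited values of the 24 libraries (tolerance 0.05). The strand setting of the counting was not given in the sources used here.

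Members were matched by symbol. Members and gene lists were chosen with earlier results of these data known. Values were tested as log2(value + 1) with limma (3.58.1, trend) in R 4.3.3, with all groups of a table in 1 fit. Genes with more than 1 read in all were tested, 21533 for J1 and 24007 for the tet-off lines, and p-values were adjusted by Benjamini-Hochberg. On simulated counts the fit recovered nearly all changed genes, but its false calls are not given here. That recovery is not taken as a check on calls of genes with few reads or on calls near the fold threshold. Library values were given for the 3 largest called changes of each comparison and for the paralogue families, and further members and genes were added after their values were seen. Of other lists, the called genes of largest change with a mean of at least 100 were named, except for a result that is not reported here, and Cdkn2b was added afterwards. Alternatives were edgeR (4.0.16) and DESeq2 (1.42.0) run on whole reads, a replicate block, only the groups compared, a pseudocount of 0.1, scaling by TMM, a minimum mean of 10, median centring, a fold threshold of 1 or none, and leaving out each library. An exact permutation test of 2 against 2 libraries cannot go below p = 0.333 and was not used. Copies of transcripts were searched with minimap2.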

Additional observations from a re-analysis of the deposited data

Results flagged for a closer look

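The effects below differed between lines by a test of the difference itself in the limma fit (adjusted p below 0.05 and a difference beyond 0.6 on the log2 scale). They are given as the first line's log2 effect minus the second's, and a gene that differed between several pairs of lines is given for the pair with the largest difference. The spread within a group of 2 libraries was too small a sample for a search for outlying libraries. For the Dox effect of Oct4-cKO minus Nanog-cKO, PRC2 genes differed by -0.88 (Suz12), 1.70 (Rbbp7), -1.35 (Mtf2), 0.61 (Phf1), -1.20 (Jarid2) and -0.89 (Aebp2). Canonical PRC1 genes differed by 1.87 (Cbx8), -2.70 (Phc1), 0.65 (Phc2), -0.81 (Phc3) and -0.89 (Scmh1), and Bcor, Mga and Asxl1 by 2.44, -1.38 and -1.16. For the Dox effect of Sox2-cKO minus Nanog-cKO, the differences were -0.94 (Ezh2), -0.89 (Eed), -1.50 (Bmi1), 0.64 (Yaf2) and 0.85 (E2f6). For the Dox effect of Oct4-cKO minus Sox2-cKO they were -1.02 (Bcorl1) and 0.67 (Pcgf6). Of these Dox differences, that of Phf1 was lost after median centring (0.53) and when only the groups compared were fitted (adjusted p = 0.198). It was 0.39 without untreated Oct4-cKO replicate 1. Those of Phc2 (0.58) and Yaf2 (0.57) fell inside the fold threshold after median centring.

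For the conversion effect of Sox2-cKO minus Nanog-cKO, PRC2 genes differed by -0.72 (Ezh1), -0.81 (Ezh2), 0.65 (Eed), -0.93 (Phf1) and -0.74 (Phf19). PRC1 genes differed by 0.64 (Pcgf2), -0.99 (Phc2), -0.66 (Scmh1), 1.13 (Kdm2b), 0.69 (Bcorl1) and -0.63 (E2f6). For the conversion effect of Oct4-cKO minus Sox2-cKO, the differences were 1.16 (Rbbp7), 0.60 (Bcor), 1.57 (Pcgf5) and -0.79 (L3mbtl2). For the conversion effect of Oct4-cKO minus Nanog-cKO they were 0.83 (Jarid2), -0.92 (Cbx2), -1.59 (Cbx8), -1.66 (Bmi1), -0.91 (Phc1), -0.95 (Rybp) and -0.95 (Pcgf1). Several of these rest on the ESCs of 1 line, as with Ezh1, Ezh2, Bmi1 and Pcgf1, whose lowest tet-off values were those of Nanog-cKO ESCs. The Bcor difference fell inside the fold threshold after median centring (0.56). Those of Eed (0.59), Phf19 (-0.57), Pcgf2 (0.57), Scmh1 (-0.55), Bcorl1 (0.58) and E2f6 (-0.52) did so on leaving out 1 library.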

How the results depend on the processing

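Of 89 called values in the 9 comparisons, 60 kept their call under every alternative other than a fold threshold of 1, 29 lost it at least once, and 0 reversed. Of 72 called differences between lines, 51 kept their call, 21 lost it and 0 reversed. With a log2 fold threshold of 1 the calls higher and lower in J1 were 1 and 1 for D-EPSCs and 1 and 1 for L-EPSCs against ESCs, and 0 lower in L-EPSCs against D-EPSCs. For conversion they were 3 and 3 in Oct4-cKO, 1 and 1 in Sox2-cKO and 5 and 3 in Nanog-cKO, and for Dox 5 lower in Oct4-cKO, 3 and 1 in Sox2-cKO and 0 lower in Nanog-cKO. Rbbp7, Bcor, Phc2 and Cbx8 stayed called higher with Dox in Oct4-cKO, and Bmi1 and Aebp2 in Nanog-cKO. Between lines (Oct4-cKO with Sox2-cKO, Oct4-cKO with Nanog-cKO, Sox2-cKO with Nanog-cKO) 2, 8 and 6 members were left for Dox and 2, 2 and 2 for conversion. With no fold threshold the counts were 7 and 15 for J1 D-EPSCs against ESCs, 10 and 13 for L-EPSCs against ESCs, 13 and 8 for L-EPSCs against D-EPSCs, 11 and 15, 7 and 19 for conversion in Oct4-cKO and Sox2-cKO, and 12 and 17, 10 and 15, 12 and 7 for Dox in Oct4-cKO, Sox2-cKO and Nanog-cKO, with 17 (Oct4-cKO with Sox2-cKO) and 21 (Sox2-cKO with Nanog-cKO) differences for Dox and 19 (with Sox2-cKO) and 24 (with Nanog-cKO) for conversion of Oct4-cKO. Fitting only the groups compared left 1 higher in J1 L-EPSCs against ESCs and 0 lower with Dox in Nanog-cKO. Median centring gave 1 higher in L-EPSCs against D-EPSCs, as edgeR did, 3 higher with Dox in Sox2-cKO and 4 in Nanog-cKO. Leaving out 1 library gave 2 to 3 lower for D-EPSCs, 0 to 1 higher and 1 to 4 lower for L-EPSCs against ESCs, 0 to 2 lower for L-EPSCs against D-EPSCs, and 2 to 4 higher and 0 to 1 lower with Dox in Nanog-cKO. Where 1 library of a group was left, it was assumed to vary like the other groups. Why a fit of fewer groups or another scaling moved a count was not tested.

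Replicate numbers did not pair the libraries: deviations of same-numbered libraries correlated from -0.0093 to -0.0013 in J1 and from -0.0279 to 0.0402 in the tet-off lines. With the replicate block Cbx8 in J1 D-EPSCs lost its call (adjusted p = 0.0513), and no other count moved by over 1.5 times. With 2 libraries a group, small changes of low genes such as Phf19, Cbx8 and Ring1 are the least certain.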
